A study of Homo sapiens with 8 samples.

Results

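OSMI-2 alone was set against control in LNCaP cells, a human prostate cancer line, first cultured from a metastasis in a lymph node, that secretes prostate-specific antigen. RNA was sequenced from 2 libraries of cells treated with OSMI-2 at 40 µM and from 2 libraries of control cells, both after 4 hours, out of 8 libraries in the series. A gene was compared if its normalised count averaged 10 or more over these 4 libraries, which held for 19266 of the 55737 in the deposited table. The other 4 libraries were 2 of cells given OSMI-2 at 40 µM together with AT7519, a cyclin-dependent kinase inhibitor, at 0.5 µM, and 2 of cells given AT7519 alone, also for 4 hours. They were used to estimate the spread between replicates and to show what OSMI-2 did when AT7519 was present in both groups. The doses are those of the design text, and the treatment field gives the same figures in mM. The sources used here do not say what the control cells received. The series asks how blocking O-GlcNAc transferase bears on how far prostate cancer cells rely on CDK9, and this pair of groups shows what the OGT inhibitor does to mRNA levels by itself.

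O-GlcNAc transferase (OGT) attaches a single sugar, N-acetylglucosamine, to serine and threonine residues of nuclear, cytosolic and mitochondrial proteins. The sugar donor, UDP-GlcNAc, is made by the hexosamine pathway from fructose 6-phosphate, glutamine, acetyl-CoA and UTP, and a single hydrolase, encoded by MGEA5 (OGA in current use), takes the sugar off again. In mammalian cells the mRNAs of OGT and of the hydrolase are known to shift with O-GlcNAc levels, in part through retained introns. All values here are mRNA levels, and O-GlcNAc on proteins was not measured in the data used here.

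Reads assigned to genes numbered 88244103 and 104520670 in the OSMI-2 libraries and 154367238 and 100148281 in the control libraries. A level of 3 reads corresponded to 1.76 to 5.47 normalised counts over the 8 libraries. The deposited values summed to 86590103 and 86605539 normalised counts with OSMI-2 and 90781451 and 91709442 in control. Across tested genes, which are not independent of each other, Pearson's r between replicates on the log2 scale was 0.9932 with OSMI-2 and 0.9941 in control. Nothing in the labels says that replicates came from separate cultures, so the p-values rest on a spread between libraries that may be only technical. Of 10 genes that mark LNCaP cells, 10 were tested and 0 passed. KLK3 (prostate-specific antigen) had 103345 and 127264 normalised counts with OSMI-2 and 93639 and 98725 in control. Markers of leukocytes summed to 20.6 and 15.7 normalised counts with OSMI-2 and to 12.3 and 10.99 in control, and 0 of 7 reached the minimum for testing. Markers of other cell types had more. In the same order, sums were 2288, 3020, 2599 and 2600 for fibroblasts and 1400, 1240, 1486 and 1386 for endothelium. They were 644, 662, 687 and 598 for neuroendocrine cells and 255, 293, 223 and 237 for basal prostate epithelium. No tested marker of these 4 lists passed.

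On the deposited scale OSMI-2 lowered more mRNAs than it raised, and most changes were small. Of the 19266 genes, 585 (3.04%) passed in limma with Benjamini-Hochberg adjustment at an adjusted p below 0.05, and 3414 had an unadjusted p below 0.05. Called higher were 123 genes (0.638%) and called lower 462 genes (2.4%). The median fold among called genes was 1.51 for those higher and 1.32 for those lower, and 17 rose and 7 fell by at least 1 on the log2 scale. In all 585 the 2 OSMI-2 libraries lay on 1 side of both control libraries, as they did in 53.8% of all tested genes (both above in 23.7%, both below in 30.1%). How many genes went each way varied with the scaling: there were 141 genes higher and 116 lower with libraries scaled to equal totals, 131 and 146 with equal upper quartiles, 255 and 290 after quantile normalisation, and 94 and 1170 with equal sums of the 13 mitochondrially encoded mRNAs, a scale that moved the median gene to -0.14 from -0.02 (log2) on the deposited scale. All 585 genes kept their direction on these scales. The median gene lay between -0.14 and 0.06 on them, against median changes of 0.59 and -0.40 in genes called higher and lower. Kept directions therefore say little about these calls. The number of calls rested on single libraries. Leaving out OSMI-2 replicate 1 gave 100 and leaving out its replicate 2 gave 13. The counts were 283 and 2 with control replicates 1 and 2 left out, and 886 and 881 with AT7519 replicates 1 and 2 left out. Without its variance trend limma called 0, although 2772 genes had an unadjusted p below 0.05. On whole reads recovered from the deposited values, edgeR called 708 genes and DESeq2 1525.

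The genes that fell were mostly those with high counts. Sorted by mean normalised count, which grows with transcript length as well as with abundance, 5 equal bins of genes from lowest to highest held 2, 6, 28, 108 and 318 genes called lower and 3, 15, 50, 26 and 29 called higher. Their median log2 changes were 0.08, 0.09, 0.02, -0.05 and -0.09 in the same order. The genes called lower had a median of 9478 normalised counts, those called higher 1716 and those not called 848. By annotation, 445 of 13343 protein-coding genes fell and 101 rose, with a median change of -0.04, while of 774 long non-coding RNAs 7 fell and 8 rose, with a median of 0.11. Symbols without a match in the annotation had a median of 0.10. The classes were not compared at like levels. In 5 equal bins of protein-coding genes from shortest to longest gene span, the shares called lower were 4.01%, 4.65%, 3.86%, 2.77% and 1.39%. Spans in the last bin reach from 100.1 kb upwards. Median log2 changes of these bins were -0.04, -0.03, -0.05, -0.04 and -0.03 in the same order, so the median change hardly varied with span. All medians given here hold for the deposited scale. How far the larger number of calls at high counts reflects the better precision there was not tested.

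**Figure D1:**
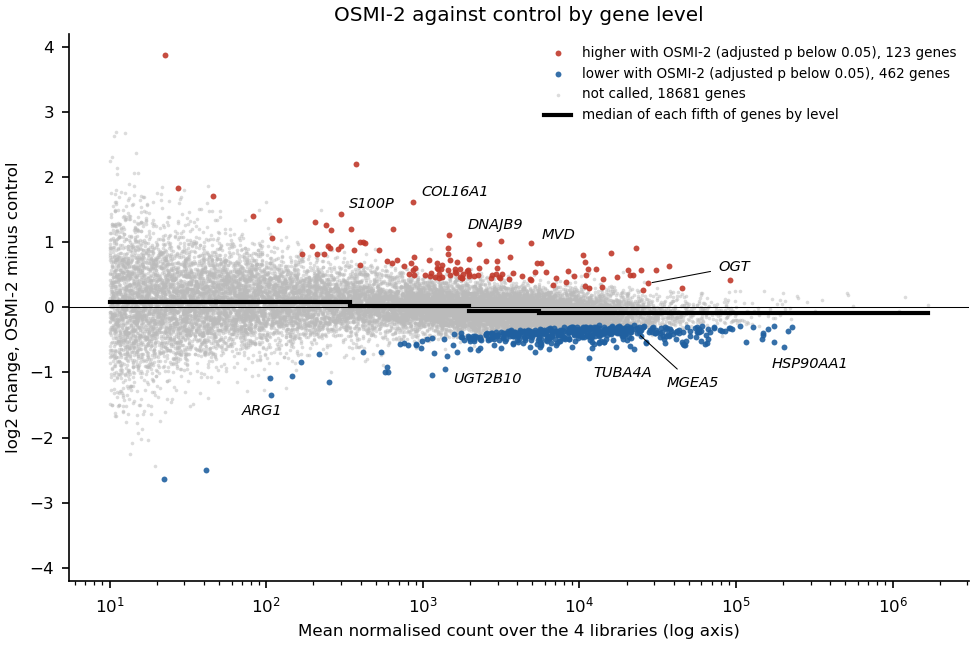
Log2 change of OSMI-2 minus control (vertical axis) against the mean normalised count over the 4 libraries (horizontal log axis), 1 point for each of 19266 genes. Red points are the 123 genes called higher, blue points the 462 called lower, grey points those not called, and black lines the medians of 5 equal bins of genes by level, which pass from 0.08 in the lowest to -0.09 in the highest on the deposited scale.

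Of the 14 genes of O-GlcNAc cycling and the hexosamine pathway, 1 rose and 1 fell, and they were the transferase and the hydrolase. Each is 7.14% of the list, against 0.638% of all genes tested called higher and 2.4% called lower. In the 3853 genes with the highest levels, which include OGT and MGEA5, these shares were 0.753% and 8.25%. The share that fell is thus under that of genes at such levels. OGT had 31597 and 30152 normalised counts with OSMI-2 and 24330 and 23509 in control. Both OSMI-2 libraries lay above both controls, and OGT was 1.29-fold higher (log2 change 0.37, SE 0.09, limma adjusted p = 0.044). MGEA5 had 19571 and 20927 normalised counts with OSMI-2 and 28414 and 24816 in control, 1.31-fold lower (log2 change -0.39, SE 0.08, limma adjusted p = 0.022). The 2 groups did not overlap here either. OGT did not pass on the mitochondrial scale (log2 change 0.24) and MGEA5 did not with equal totals (-0.32), equal upper quartiles (-0.33) or quantile normalisation (-0.28), and neither passed when any 1 of the 4 libraries compared was left out. OGT also did not pass without either combination library. OGT log2 changes were 0.33 and 0.40 without OSMI-2 replicates 1 and 2 and 0.39 and 0.34 without control replicates 1 and 2. Those of MGEA5 were -0.34, -0.44, -0.29 and -0.49 in the same order.

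The enzymes that make UDP-GlcNAc gave no further calls in the main fit, on the deposited scale with all 8 libraries and no replicate block. GFPT1, whose product is the first and rate-limiting enzyme of the pathway, had 17637 and 18318 normalised counts with OSMI-2 and 13557 and 15434 in control (log2 change 0.31, limma adjusted p = 0.070). PGM3, which isomerises the phosphorylated sugar, had 9135 and 10155 with OSMI-2 and 7313 and 8204 in control (0.31, limma adjusted p = 0.076), and it overlaps DOP1A and RWDD2A on the other strand. Both OSMI-2 libraries lay above both controls in these 2 genes as well, and both genes passed when a replicate block was added to the fit. They also passed with equal totals (limma adjusted p = 0.040 for GFPT1 and 0.047 for PGM3), after quantile normalisation (0.018 and 0.029), with the 4 libraries alone (0.032 and 0.040) and by DESeq2 (adjusted p = 0.022 for both). GFPT1 passed with equal upper quartiles too (limma adjusted p = 0.048). Neither gene passed with equal mitochondrial mRNAs, where 0 of the 14 genes were called higher. Nor did they pass without the variance trend, where 0 of all tested genes were called. GNPNAT1, which acetylates glucosamine 6-phosphate, had 13577 and 14432 with OSMI-2 and 14913 and 18239 in control (-0.24, limma adjusted p = 0.19). UAP1, which forms UDP-GlcNAc itself, had 22701 and 21863 with OSMI-2 and 22082 and 26428 in control, so its groups overlapped. EOGT, the separate transferase of the endoplasmic reticulum, had 2120 and 1873 with OSMI-2 and 1836 and 1764 in control (0.15, limma adjusted p = 0.54). Among the other members, log2 changes were -0.27 for GNPDA2 and -0.17 for GNPDA1, which turn glucosamine 6-phosphate back to fructose 6-phosphate, 0.21 for UAP1L1, 0.07 for the salvage kinase NAGK, 0.06 for AMDHD2, 0.02 for the transporter SLC35A3 and -0.20 for GFPT2, none of which passed. Of 20 genes of proteins that bind OGT, 0 passed, and HCFC1, a nuclear coregulator that OGT cleaves as well as glycosylates, had 4851 and 4811 with OSMI-2 and 5293 and 5456 in control (log2 change -0.15).

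The 12 largest rises, taken among called genes that averaged 50 or more normalised counts and have a regular symbol, were 2- to 3.07-fold. COL16A1, which encodes a collagen chain, had 1502 and 1112 normalised counts with OSMI-2 and 418 and 424 in control, and was 3.07-fold higher (log2 change 1.62, SE 0.20, limma adjusted p = 0.0047). S100P, a small calcium-binding protein, had 352 and 527 with OSMI-2 and 135 and 188 in control. BEST1, a calcium-gated chloride channel, had 2280 and 1768 with OSMI-2 and 947 and 915 in control, 2.16-fold higher (limma adjusted p = 0.0029). The OSMI-2 libraries lay apart from the controls in each of these, but not by the same margin, as the OSMI-2 values of COL16A1 and S100P differed between replicates by more than those of control. NDUFA4L2, a hypoxia-induced mitochondrial protein, had 574 and 391.9 with OSMI-2 and 228 and 187 in control. DMGDH, a mitochondrial enzyme of choline breakdown, had 469 and 261 with OSMI-2 and 170 and 138 in control. DNAJB9, a co-chaperone of the endoplasmic reticulum, had 4260 and 4198 with OSMI-2 and 1797 and 2438 in control. In DNAJB9 the replicates with OSMI-2 were nearly equal and the spread lay in control. PSD, an exchange factor for ARF6, rose 2-fold, YPEL1 2-fold, the cyclic nucleotide phosphodiesterase gene PDE2A 2.09-fold and KIAA1683 2.29-fold. PARP6 had 111 and 128 with OSMI-2 and 53.5 and 36.6 in control, and PRSS1, the gene of cationic trypsinogen, had 142 and 201 with OSMI-2 and 96.4 and 44.9 in control, so both rest on low counts. Of the 12, 5 and 2 still passed with OSMI-2 replicates 1 and 2 left out, and 6 and 1 with control replicates 1 and 2 left out, the last being DNAJB9. Counting with or without strand is not given in the sources used here. If strand was ignored, reads of a coding gene on the other strand could enter NDUFA4L2 (SHMT2), DMGDH (BHMT and BHMT2), BEST1 (FTH1), DNAJB9 (PNPLA8 and THAP5), PSD (FBXL15) and YPEL1 (PPIL2), and reads of near-identical genes can be shared with PRSS1. Larger changes were fitted in some genes below the minimum of 50, and CYBA, picked out after its values were seen, had 36.3 and 48.9 with OSMI-2 and 3.53 and 0.916 in control.

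The 12 largest falls were 1.63- to 2.53-fold. ARG1, the cytosolic arginase of the urea cycle, had 64.8 and 54.7 normalised counts with OSMI-2 and 126 and 184 in control (2.53-fold lower, log2 change -1.34, SE 0.27, limma adjusted p = 0.020). BRDT, a bromodomain protein known from the testis, had 777 and 715 with OSMI-2 and 1296 and 1807 in control. DHRS2, a mitochondrial short-chain reductase, had 458 and 350 with OSMI-2 and 826 and 775 in control. The groups were apart in all of these. The gene with the smallest adjusted p was TUBA4A, an alpha-tubulin, with 8564 and 8413 with OSMI-2 and 14366 and 14842 in control, 1.72-fold lower (log2 change -0.78, SE 0.07, limma adjusted p = 0.00054). Its replicates nearly coincided within each group, and it was the 1 gene of all 585 called without each of the 8 libraries in turn. ABCG2, a drug efflux pump, had 123 and 114 with OSMI-2 and 189 and 241 in control, and MMP7, a matrix metalloproteinase, had 174 and 155 with OSMI-2 and 271 and 271 in control. CD3EAP, a subunit of RNA polymerase I, had 894 and 892 with OSMI-2 and 1283 and 1650 in control. CCDC83 fell 2.21-fold, the Rac exchange factor gene PREX2 2.08-fold, the non-coding RNA LINC00161 1.67-fold and UGT2B10, described below with its family, 1.92-fold. SNORA73B, a small nucleolar RNA, had 75.6 and 58.0 with OSMI-2 and 118 and 171 in control, and it lies within RCC1, which fell too. ARG1 overlaps MED23 on the other strand, TUBA4A overlaps STK16 and TUBA4B, and CD3EAP likewise overlaps ERCC1 and PPP1R13L. Without OSMI-2 replicates 1 and 2, 2 and 1 of these 12 passed, and without control replicates 1 and 2, 8 and 1 did, the last being TUBA4A.

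**Figure D2:**
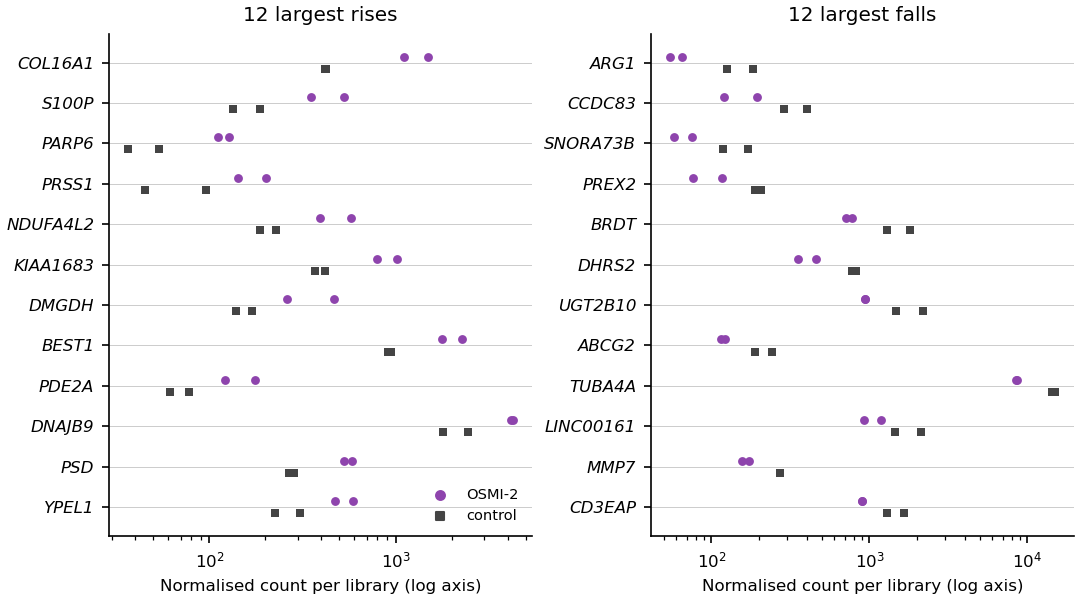
Normalised counts per library (horizontal log axes) of the 12 largest rises, left, and the 12 largest falls, right, with OSMI-2 as purple circles and control as dark grey squares, 2 libraries each. In each of the 24 genes both circles lie on the same side of both squares, to the right in the rises and to the left in the falls.

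Many genes that build ribosomes fell. Ribosome biogenesis begins in the nucleolus, where RNA polymerase I transcribes ribosomal RNA and small nucleolar ribonucleoproteins and helicases process it. Of 41 ribosome biogenesis genes, 24 fell and 0 rose, the median log2 change was -0.38 against -0.02 over all genes tested, and in 41 of 41 both OSMI-2 libraries lay below both controls. Over all genes tested 2.4% were called lower and 30.1% had both OSMI-2 libraries below both controls. In the 3853 genes with the highest levels 8.25% were called lower. The same shares are the background for each list of falling genes below. The lists were written with earlier results of these data known. LYAR, a nucleolar zinc finger protein, had 1846 and 1773 normalised counts with OSMI-2 and 2489 and 3135 in control, 1.54-fold lower (limma adjusted p = 0.018). NOP16, a factor of the large subunit, had 3650 and 3985 with OSMI-2 and 5278 and 6446 in control. LTV1, a factor of the small subunit, had 4489 and 4386 with OSMI-2 and 6335 and 7210 in control. In all 3 the controls also differed from each other, with control replicate 2 the higher. GAR1, a protein of the H/ACA particles that pseudouridylate RNA, was 1.49-fold lower (limma adjusted p = 0.0094). RNA polymerase I and III subunits had 3 of 30 called lower, namely POLR3G (1.56-fold), POLR3K (1.40-fold) and POLR1B (1.31-fold), and a median of -0.15. This share of 10% is near the 8.25% of the genes with the highest levels.

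In the lists downstream of ribosome assembly smaller shares passed. Of 76 cytosolic ribosomal protein genes, 2 fell, RPS26 (1.27-fold) and RPL21 (1.23-fold), and the median was -0.13, with 55 of 76 below both controls. That is 2.63% called lower, near the 2.4% of all genes tested and under the 8.25% in the 3853 genes with the highest levels. Many ribosomal protein genes have processed copies with which reads can be shared. Of 41 translation factors 7 fell, with a median of -0.19. EIF4E, the cap-binding protein, had 11233 and 11440 normalised counts with OSMI-2 and 14362 and 16588 in control, 1.36-fold lower (limma adjusted p = 0.016), and EIF4H (1.33-fold), EIF5A (1.30-fold) and EIF5B (1.26-fold) fell too. Of 22 aminoacyl-tRNA synthetases, which charge tRNAs, 2 fell, FARSB (1.42-fold) and VARS (1.28-fold), and the median of -0.10 turned to 0.02 after quantile normalisation. Their share of 9.09% called lower is also near the 8.25% of the genes with the highest levels. Over these 5 lists, 38 of 210 genes fell and 0 rose on the deposited scale, 10 fell with equal totals and 12 with equal upper quartiles. The count was 5 and 0 without OSMI-2 replicates 1 and 2 and 26 and 0 without control replicates 1 and 2, while 176 to 192 of the 210 kept a negative change in those 4 fits, against 191 with all libraries.

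Some nuclear genes of mitochondrial biogenesis fell as well. Of 75 mitochondrial ribosomal proteins, which translate the few mRNAs of the mitochondrial genome, 16 fell and 0 rose (median -0.28, 69 of 75 below both controls). Called lower were 21.3% of this list, against 2.4% of all genes tested and 8.25% of the 3853 with the highest levels. MRPL18 had 5799 and 5820 normalised counts with OSMI-2 and 7538 and 8754 in control, 1.40-fold lower (limma adjusted p = 0.015), and MRPL15 (1.39-fold), MRPS28 (1.38-fold) and MRPL36 (1.37-fold) followed. Of 30 genes of mitochondrial protein import and chaperones 10 fell (median -0.29). TIMM8A, an intermembrane space chaperone, had 718 and 732 with OSMI-2 and 1087 and 1063 in control, and TOMM40, the pore of the outer membrane, had 4005 and 3496 with OSMI-2 and 5139 and 5450 in control. TIMM21 fell 1.42-fold and TIMM8B 1.34-fold. Of 41 nuclear genes of the respiratory chain 7 fell (median -0.19). CYCS, cytochrome c, had 37744 and 37779 with OSMI-2 and 51449 and 61858 in control, 1.49-fold lower (limma adjusted p = 0.0059). Here too the OSMI-2 replicates were close and control replicate 2 the highest. ATP5G3, a subunit of ATP synthase, was 1.35-fold lower, NDUFB3 of complex I 1.31-fold and SDHB of complex II 1.30-fold. Of 13 mRNAs encoded by mitochondrial DNA 0 passed and 11 had a positive change on the deposited scale (median 0.12, which was -0.01 when these mRNAs set the scale), such as MT-CO1, chosen after its values were seen, with 1200330 and 1323200 with OSMI-2 and 1136130 and 1131220 in control. Of 146 nuclear genes over the 3 lists 33 fell, 6 with equal totals and 7 with equal upper quartiles. Leaving out OSMI-2 replicates 1 and 2 gave 3 and 0 falls, and leaving out control replicates 1 and 2 gave 16 and 0, with 138 to 143 of 146 negative in those 4 fits.

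Some genes of DNA replication and mitosis fell. Cells entering S phase load the MCM2 to MCM7 helicase on DNA, fire it with the GINS complex and make deoxynucleotides, and E2F factors are known to drive many of these genes. Of 48 genes of the G1/S transition and DNA replication, 16 fell and 0 rose, with a median of -0.38 and 43 of 48 below both controls. Called lower were 33.3% of this list, against 2.4% of all genes tested and 8.25% of the 3853 with the highest levels. CDC25A, the phosphatase that activates CDK2, had 2739 and 2269 normalised counts with OSMI-2 and 3563 and 4139 in control, 1.54-fold lower (log2 change -0.62, SE 0.12, limma adjusted p = 0.018). MCM7 had 18584 and 14854 with OSMI-2 and 25062 and 25080 in control, 1.51-fold lower (limma adjusted p = 0.0093). GINS2 had 2506 and 2096 with OSMI-2 and 3422 and 3424 in control, and GINS1 had 6616 and 5160 with OSMI-2 and 8155 and 9027 in control. In these 4 genes OSMI-2 replicate 2 was the lowest library. MCM2, MCM3, MCM4, MCM6, MCM10, FEN1, PCNA, RRM2, TK1, POLA1 and DSCC1, named after their values were seen, were among the others that fell, with log2 changes of -0.54 in MCM6 to -0.38 in POLA1. In bulk RNA, fewer cells in a phase of the cycle and less of these mRNAs per cell cannot be told apart.

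An E2F element was searched as TTTCGCGC or TTTGGCGC on both strands in the RefSeq promoter sequences (250 bases before to 50 after each gene's start, GRCh38.p14). A match was found in 14 of 41 promoters of the list (34.1%), in 7 of the 13 whose gene fell, and in 1.40% of 27305 promoters. The fallen genes with a match were MCM2, MCM3, MCM6, MCM7, GINS1, POLA1 and CDC25A. Stretches of 4 of them are shown because the genes fell and their promoters hold the letters, in lower case with the match in capitals, 5′ to 3′ on the gene's strand. In MCM2 and MCM6 the capitals hold matches on both strands that overlap each other.
MCM2, chr3:127598383-127598454, plus strand: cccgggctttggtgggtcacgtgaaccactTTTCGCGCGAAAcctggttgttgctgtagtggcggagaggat
MCM6, chr2:135876492-135876625, minus strand: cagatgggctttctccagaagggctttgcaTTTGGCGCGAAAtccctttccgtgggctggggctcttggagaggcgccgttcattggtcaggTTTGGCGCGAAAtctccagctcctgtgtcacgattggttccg
MCM7, chr7:100101369-100101436, minus strand: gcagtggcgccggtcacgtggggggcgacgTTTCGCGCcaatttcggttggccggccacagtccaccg
CDC25A, chr3:48188424-48188491, minus strand: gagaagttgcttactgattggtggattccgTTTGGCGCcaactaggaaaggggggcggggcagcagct
A match of these letters describes the sequence and is not a measured binding site.

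Of 36 genes of G2 and mitosis 10 fell and 0 rose (median -0.29), a share of 27.8% called lower against 2.4% of all genes tested. CDK1, the mitotic kinase, had 22746 and 20538 normalised counts with OSMI-2 and 29086 and 34162 in control, 1.46-fold lower (limma adjusted p = 0.010). AURKA, a kinase of the spindle poles, had 4842 and 4677 with OSMI-2 and 6611 and 6689 in control, and BIRC5, survivin, had 9260 and 8299 with OSMI-2 and 12158 and 11700 in control. SPC25 of the kinetochore fell 1.37-fold. Of 23 genes of purine and pyrimidine synthesis 7 fell and 0 rose (median -0.31, 23 of 23 below both controls), among them CTPS1 (1.37-fold), which makes CTP, UMPS (1.36-fold) and MTHFD1 (1.31-fold). Of 19 genes of serine, one-carbon and polyamine synthesis 3 fell, and they were the polyamine enzymes ODC1 (1.35-fold), SRM (1.30-fold) and SMS (1.28-fold). The median of that list, -0.05, turned to 0.02 with equal totals and 0.01 with equal upper quartiles. The replication-dependent histone genes, which are coupled to S phase, gave 0 calls among 21 (median 0.13, with 4 genes above and 3 below both controls). Over the 4 lists other than histones 35 of 124 genes fell and 0 rose, while 11 fell and 1 rose with equal totals and 14 fell and 1 rose with equal upper quartiles. The falls numbered 22 and 0 with OSMI-2 replicates 1 and 2 left out and 11 and 0 with control replicates 1 and 2 left out, with 109 to 120 of 124 negative in those 4 fits.

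Some genes of cytosolic protein folding and degradation fell too. The chaperonin, a ring of CCT subunits including TCP1, folds actin and tubulin handed over by prefoldin. Of its 14 genes with prefoldin, 10 fell and 0 rose, with a median of -0.40 and 14 of 14 below both controls. Over all genes tested 2.4% were called lower and 30.1% lay below both controls. TCP1 had 38242 and 36583 normalised counts with OSMI-2 and 51755 and 60857 in control, 1.5-fold lower (limma adjusted p = 0.0059). CCT6A had 37045 and 36632 with OSMI-2 and 49481 and 56853 in control, and CCT2 had 29480 and 28396 with OSMI-2 and 37792 and 43163 in control. PFDN2 of prefoldin fell 1.46-fold. Of 36 proteasome genes 16 fell and 0 rose (median -0.30, 33 of 36 below both controls), with PSMA3 of the core ring at 13266 and 12265 with OSMI-2 and 16268 and 17942 in control. PSMD1, PSMD14 and PSMC1 of the regulatory particle were each 1.29-fold lower.

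Of 27 heat shock and cytosolic chaperone genes 9 fell and 0 rose (median -0.35, 27 of 27 with a negative change). Called lower were 33.3% of this list, against 2.4% of all genes tested. HSP90AA1, the inducible HSP90, had 149517 and 172383 normalised counts with OSMI-2 and 228099 and 262684 in control, 1.52-fold lower (log2 change -0.61, SE 0.10, limma adjusted p = 0.011). HSPH1, a nucleotide exchange factor of HSP70, had 8380 and 10657 with OSMI-2 and 12718 and 16600 in control. STIP1, which links HSP70 to HSP90, was 1.37-fold lower and FKBP4, an HSP90 co-chaperone of steroid receptors, 1.36-fold lower. In HSP90AA1 and HSPH1 the lower library of each group was replicate 1. The heat shock element, searched as 3 units of GAA and TTC in alternation with 2 bases between units, on both strands, occurred in 6 of 25 promoters of the list, in 2 of the 8 whose gene fell, and in 0.608% of 27305 promoters (RefSeq, GRCh38.p14). HSP90AB1, the constitutive HSP90, had 190015 and 185317 with OSMI-2 and 241900 and 241583 in control, 1.29-fold lower, and was added after its values were seen for this match. Reads of both HSP90 genes can be shared with processed copies. Both promoters are shown since they hold the match and the genes fell, with the element in capitals.
HSP90AA1, chr14:102087090-102087162, minus strand: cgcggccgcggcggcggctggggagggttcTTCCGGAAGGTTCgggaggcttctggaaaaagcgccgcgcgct
HSP90AB1, chr6:44247748-44247873, plus strand: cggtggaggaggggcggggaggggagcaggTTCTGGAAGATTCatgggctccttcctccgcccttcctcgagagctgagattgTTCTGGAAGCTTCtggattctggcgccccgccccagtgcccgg
Over the chaperonin, proteasome and heat shock lists 35 of 77 genes fell, 15 with equal totals and 19 with equal upper quartiles. Without OSMI-2 replicates 1 and 2 it was 5 and 0, and without control replicates 1 and 2 it was 20 and 0, with 74 to 76 of 77 negative in those 4 fits.

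Some splicing and nuclear transport genes also fell. Of 57 splicing factors 19 fell and 0 rose (median -0.27), a share of 33.3% called lower against 2.4% of all genes tested. HNRNPA2B1 had 142644 and 140294 normalised counts with OSMI-2 and 195183 and 216596 in control, 1.45-fold lower (limma adjusted p = 0.0054). HNRNPD had 30364 and 26859 with OSMI-2 and 40116 and 43106 in control, and SNRPF, an Sm core protein, had 6224 and 5976 with OSMI-2 and 8561 and 8988 in control. HNRNPAB fell 1.40-fold. Of 29 importins, exportins and Ran factors 8 fell (median -0.23), with CSE1L, which returns importin alpha to the cytosol, at 22008 and 21391 with OSMI-2 and 29257 and 33786 in control. KPNA2, an importin alpha, was 1.41-fold lower, RCC1, the exchange factor of Ran, 1.37-fold and RANBP1 1.33-fold. Of 28 nucleoporins, many of which carry O-GlcNAc, 2 fell, NUP93 (1.30-fold) and NUP205 (1.28-fold), with a median of -0.19. These 2 are 7.14% of the list, under the 8.25% called lower in the 3853 genes with the highest levels. Over these 3 lists 29 of 114 genes fell and 0 rose, 12 with equal totals and 15 with equal upper quartiles. With OSMI-2 replicates 1 and 2 left out 8 and 0 fell, and with control replicates 1 and 2 left out 17 and 0 did, with 101 to 104 of 114 negative in those 4 fits.

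**Figure D3:**
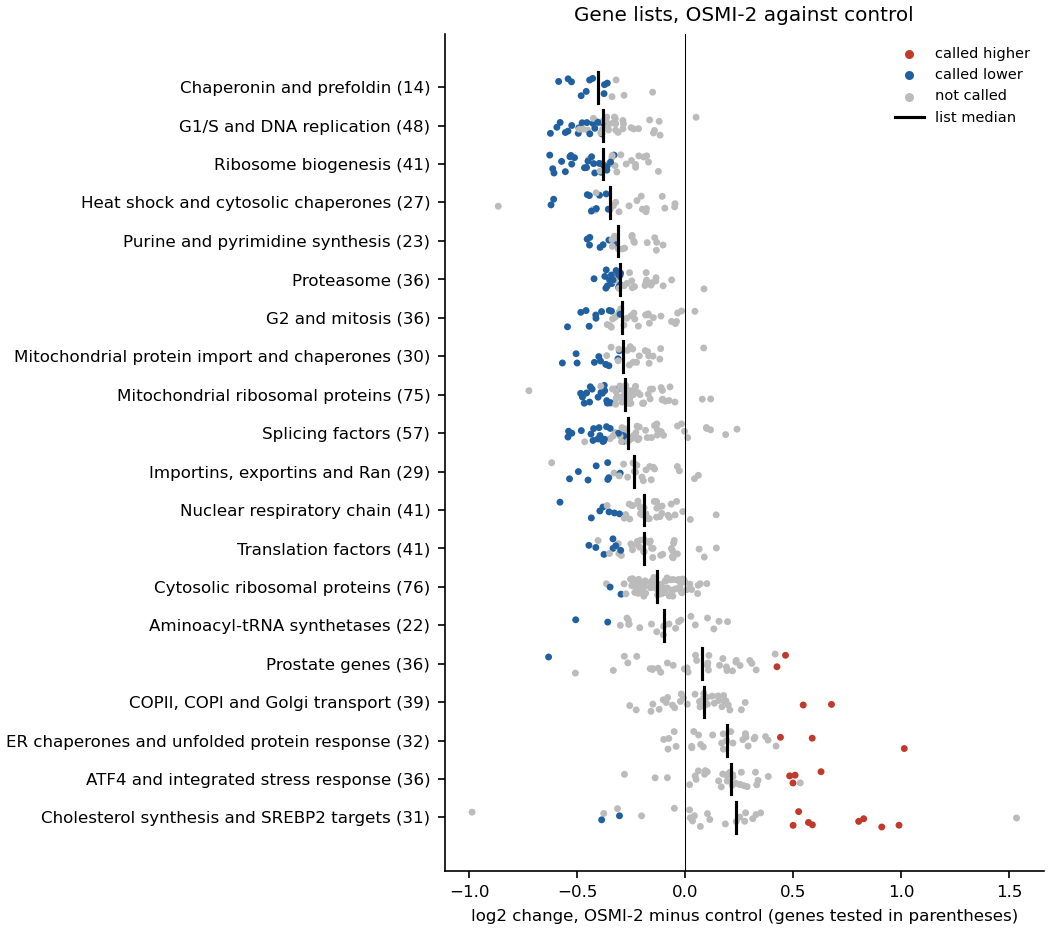
Log2 change of OSMI-2 minus control (horizontal axis) for each tested gene of 20 lists, ordered by their median (black bar), with genes called higher in red, called lower in blue and not called in grey. The chaperonin, DNA replication and ribosome biogenesis lists lie almost wholly below 0, while the lists at the bottom lie mostly above it on the deposited scale, where the medians of prostate and Golgi transport genes turn negative when libraries are scaled to mitochondrial mRNAs.

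Some genes of the endoplasmic reticulum rose. When unfolded proteins collect in this compartment, the sensors IRE1, ATF6 and PERK are known to raise its chaperones and, through ATF4, genes of amino acid supply. Of 32 genes of chaperones and the unfolded protein response, 3 rose and 0 fell, with a median of 0.19 and 21 of 32 above both controls. Over all genes tested 0.638% were called higher and 23.7% lay above both controls. DNAJB9, given above among the largest rises, was 2.02-fold higher (log2 change 1.01, SE 0.13, limma adjusted p = 0.0047). HSPA13 had 13612 and 13586 normalised counts with OSMI-2 and 8909 and 9184 in control, 1.5-fold higher. EIF2AK3, the gene of PERK, had 5309 and 5855 with OSMI-2 and 4058 and 4154 in control. The abundant chaperones, chosen after their values were seen, did not pass: HSPA5 (BiP) had 82477 and 89201 with OSMI-2 and 76511 and 85549 in control (log2 change 0.08), and HSP90B1 had 119978 and 136583 with OSMI-2 and 130637 and 134536 in control (-0.05). XBP1, chosen likewise, the factor that IRE1 activates, had 14992 and 15454 with OSMI-2 and 12583 and 12459 in control (0.28, limma adjusted p = 0.33). The ER stress element, searched as CCAAT and CCACG with 9 bases between them on both strands, was in 7 of 31 promoters of this list and 0.0916% of all promoters, and in 0 of the 3 whose gene rose. Among its 7 holders were HSPA5, HSP90B1 and XBP1.

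Of 39 genes of vesicle transport between the endoplasmic reticulum and the Golgi, 2 rose and 0 fell. SEC24D, a cargo adaptor of COPII coats, had 6676 and 7259 normalised counts with OSMI-2 and 3999 and 4737 in control, 1.60-fold higher (limma adjusted p = 0.0059). CREB3L2, a membrane-bound factor that drives secretory genes, had 5884 and 6427 with OSMI-2 and 3897 and 4548 in control. The median of this list was 0.09, and -0.04 on the mitochondrial scale. Of 36 genes of ATF4 and the integrated stress response 4 rose and 0 fell (median 0.21, 33 of 36 positive). SLC7A11, the cystine and glutamate exchanger, had 51297 and 40160 with OSMI-2 and 28457 and 30264 in control, 1.55-fold higher (limma adjusted p = 0.017). The glycine transporter gene SLC6A9 was 1.42-fold higher, PCK2, the mitochondrial phosphoenolpyruvate carboxykinase, 1.41-fold and ATF3 1.40-fold. In all 4, OSMI-2 replicate 1 was the highest library. A C/EBP-ATF element, TGATGNAA on both strands, was in 9 of 30 promoters of the list and 4.46% of all promoters. Among the 3 genes that rose and had a promoter sequence it was in that of ATF3 alone, which is shown with the match in capitals.
ATF3, chr1:212565186-212565253, plus strand: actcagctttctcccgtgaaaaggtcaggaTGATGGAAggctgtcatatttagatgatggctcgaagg
Over these 3 lists 9 of 107 genes rose, 12 with equal totals, 11 with equal upper quartiles and 7 on the mitochondrial scale. Without OSMI-2 replicates 1 and 2 it was 2 and 2, and without control replicates 1 and 2 it was 3 and 1, with 82 to 87 of 107 positive in those 4 fits.

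Of the 47 gene lists, that of cholesterol synthesis and SREBP2 targets had the highest share of genes called higher. The lists were written with earlier results of these data known, so this ranking only describes them and is no test. SREBP2 drives these genes when sterols in the endoplasmic reticulum run low, and INSIG1 holds its precursor back. Of 31 such genes 8 rose and 2 fell, a share of 25.8% called higher against 0.638% of all genes, with a median of 0.24. MVD, which makes isopentenyl diphosphate, had 6007 and 7073 normalised counts with OSMI-2 and 3476 and 3098 in control, 1.99-fold higher (log2 change 0.99, SE 0.10, limma adjusted p = 0.0018). INSIG1 had 26376 and 33583 with OSMI-2 and 19028 and 13180 in control, 1.88-fold higher (log2 change 0.91, SE 0.17, limma adjusted p = 0.017). MSMO1, a sterol methyl oxidase, had 18171 and 22623 with OSMI-2 and 11806 and 11069 in control. In these 3 the higher OSMI-2 library was replicate 2, and no OSMI-2 library overlapped a control. Other rises, named after their values were seen, were those of LSS (1.5-fold), MVK (1.44-fold) and HMGCS1 (1.41-fold), which act from the first steps of the pathway to the closing of the sterol ring.

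Not every sterol gene rose. TMEM97, the sigma-2 receptor, had 2270 and 2207 normalised counts with OSMI-2 and 2857 and 2995 in control, 1.31-fold lower, and ACAT2, which makes acetoacetyl-CoA, had 8409 and 7981 with OSMI-2 and 9805 and 10431 in control, 1.23-fold lower (limma adjusted p = 0.046). ACAT2 overlaps TCP1 on the other strand, and TCP1 fell too. Among members that did not pass, picked out after their values were seen, log2 changes were 0.35 for SQLE, 0.33 for DHCR7, 0.31 for IDI1, 0.02 for FDPS and -0.31 for EBP, all enzymes of the pathway, and 0.03 for the factor gene SREBF2 and 0.02 for its escort SCAP. ABCA1, chosen likewise, an LXR-driven exporter of cholesterol, had 137 and 213 with OSMI-2 and 340 and 340 in control (-0.99, limma adjusted p = 0.059). The sterol regulatory element, TCACNCCAC on both strands, was in 1 of 24 promoters of the list, that of SREBF2, in 0 of the 6 with a sequence whose gene rose, and in 1.39% of all promoters. Of 22 genes of fatty acid synthesis 3 rose and 0 fell: MVD, which is on both lists, ACSS2, an acetyl-CoA synthetase (1.37-fold), and ACLY, ATP citrate lyase (1.22-fold, limma adjusted p = 0.0498). The median of this list was 0.04, and -0.08 on the mitochondrial scale. Over both lists 10 of 52 genes rose and 2 fell, 10 and 0 with equal totals, and 8 and 6 on the mitochondrial scale. Without OSMI-2 replicates 1 and 2 there were 7 and 1 rises, and without control replicates 1 and 2 there were 8 and 0, with no fall called in those 4 fits. Positive changes numbered 39 and 26 of 52 without OSMI-2 replicates 1 and 2 and 36 and 31 without control replicates 1 and 2, against 35 with all libraries, and the median was 0.11 with all libraries, 0.0019 without OSMI-2 replicate 2 and 0.22 without its replicate 1.

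**Figure D4:**
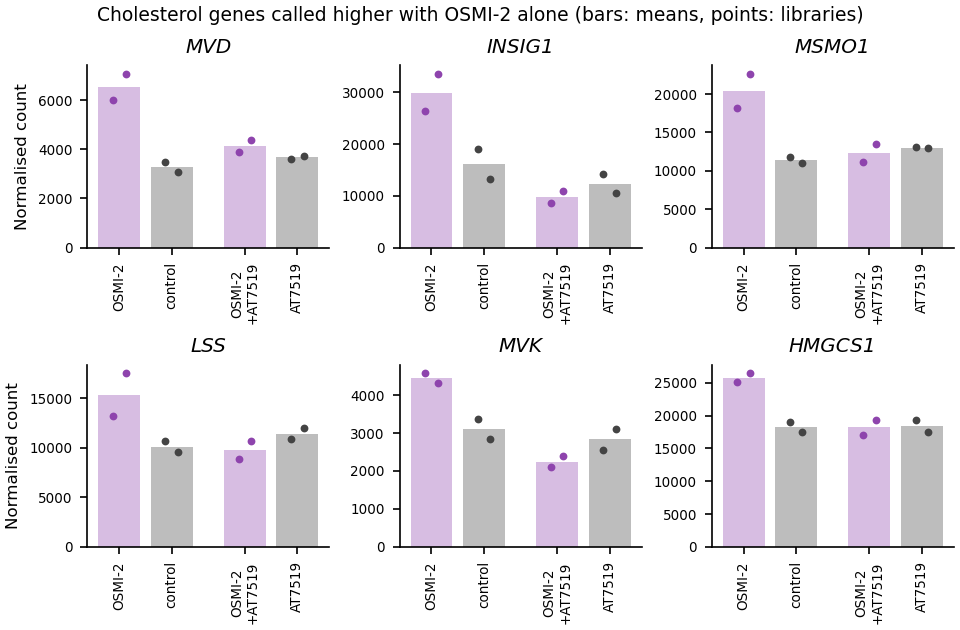
Normalised counts of 6 cholesterol genes called higher with OSMI-2 alone, each panel with OSMI-2 next to control and OSMI-2 with AT7519 next to AT7519 (bars are means of 2 libraries, points are libraries). The OSMI-2 bars stand above control in these 6 genes, while with AT7519 present the OSMI-2 mean is above that of AT7519 in MVD and at or below it in the other 5.

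Of 36 prostate genes 2 rose and 1 fell, with a median of 0.08 that was -0.05 on the mitochondrial scale. The rises are 5.56% of the list and the fall 2.78%, against 0.638% and 2.4% of all genes tested. SLC45A3 (prostein) had 19922 and 20495 normalised counts with OSMI-2 and 13484 and 15901 in control, 1.38-fold higher (limma adjusted p = 0.018), and STEAP2, a metalloreductase, had 99598 and 109963 with OSMI-2 and 76590 and 79324 in control, 1.34-fold higher. The gene that fell belongs to the UGT2B family, whose enzymes glucuronidate androgens and so inactivate them. UGT2B15 had 15794 and 18986 with OSMI-2 and 24625 and 29243 in control, 1.55-fold lower (limma adjusted p = 0.0081). UGT2B10 had 936 and 931 with OSMI-2 and 1470 and 2194 in control, and UGT2B11 had 9969 and 11628 with OSMI-2 and 13349 and 18219 in control. These 3 were the called members of 7 tested in the family (median -0.59, 7 of 7 negative), and reads can be shared among its near-identical genes. Over both lists 2 rose and 3 fell, against 2 and 2 with equal totals and 0 and 7 on the mitochondrial scale. SLC45A3 and STEAP2 thus did not pass on the mitochondrial scale. Leaving out OSMI-2 replicate 1 gave 1 rise and 0 falls and leaving out its replicate 2 gave 0 and 1, while leaving out control replicate 1 gave 0 rises and 5 falls and leaving out its replicate 2 gave 0 and 0. The always reported genes of the CDK9 axis did not pass: CDK9 had 4965 and 4904 with OSMI-2 and 4872 and 4966 in control, HEXIM1 6538 and 7259 with OSMI-2 and 6261 and 6719 in control, MYC 13380 and 13845 with OSMI-2 and 13649 and 15319 in control, and MCL1 21629 and 22603 with OSMI-2 and 25198 and 25973 in control. Of 35 genes of P-TEFb and transcription elongation 1 fell, LEO1 of the PAF1 complex (1.32-fold), a share of 2.86%, near that of all genes.

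Glycolysis, stress and cell death genes are given here by group. Of all genes tested 0.638% were called higher and 2.4% lower. Of 34 genes of glycolysis and the hypoxia response 6 fell and 2 rose, with a median of -0.10. The 6 that fell were glycolytic enzymes, with LDHA, lactate dehydrogenase, at 51380 and 51593 normalised counts with OSMI-2 and 72641 and 79007 in control (1.47-fold lower, limma adjusted p = 0.0059), TPI1 1.37-fold, PKM 1.29-fold and ENO1 1.26-fold lower, and GAPDH and ALDOA as the other 2, named to complete the count. VEGFA, the vascular growth factor, had 16763 and 15755 with OSMI-2 and 12509 and 11442 in control, 1.36-fold higher (limma adjusted p = 0.012), and NDUFA4L2 rose as above. Of 29 p53 targets 2 rose and 1 fell: BBC3, the BH3-only protein PUMA, had 919 and 786 with OSMI-2 and 565 and 466 in control (1.66-fold higher, limma adjusted p = 0.024), GDF15, a stress-induced cytokine, had 39900 and 33930 with OSMI-2 and 28929 and 21309 in control (1.48-fold higher), and the nuclease gene AEN was 1.33-fold lower. CDKN1A (p21) had 13846 and 13147 with OSMI-2 and 13401 and 15414 in control. Of 30 NRF2 and antioxidant genes, SLC7A11 rose and PRDX1, a peroxiredoxin, fell 1.40-fold. Of 27 immediate early genes ATF3 rose, of 21 BCL2 family members and apoptosis inhibitors BBC3 rose and BIRC5 fell, and of 23 collagens and secreted matrix genes COL16A1 rose. The single falls were 3.45% of the p53 list, 3.33% of the NRF2 list and 4.76% of the BCL2 list. These shares are near the 2.4% of all genes and under the 8.25% of the 3853 with the highest levels. The lists of lysosome and autophagy (38 genes), FOXO and insulin signalling (25), the circadian clock (20), interferon and NF-kB responses (27) and the MYC network (13) gave 0 calls, with medians between -0.04 and 0.05 on the deposited scale. CCND1, cyclin D1, had 19598 and 19691 with OSMI-2 and 21871 and 24885 in control and did not pass (limma adjusted p = 0.19).

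In cells that also received AT7519, OSMI-2 moved most of the same genes the same way. This comparison, of the combination with AT7519 alone, used 4 libraries that do not enter the comparison of OSMI-2 with control, although the spread per gene was estimated over all 8. In it 1410 of all tested genes (7.32%) were called higher and 2422 (12.6%) lower. Of the 462 genes that fell with OSMI-2 alone, 457 had a negative change with AT7519 present, as did 52.4% of all genes, and 399 were called lower. These 399 are 86.4% of the genes lower with OSMI-2 alone and 16.5% of those lower with AT7519 present. Of the 462, 318 were among the 3853 genes with the highest levels. A gene's shared small spread favours a call in either comparison, so the share called again is not independent of how the 462 were picked. Of the 123 genes that rose, 103 had a positive change, as did 47.6% of all genes, and 83 were called higher, which is 67.5% of the genes higher alone and 5.89% of those higher with AT7519. The median log2 change of the 462 genes was -0.37 with AT7519 and -0.40 alone, and that of the 123 genes 0.56 with AT7519 and 0.59 alone. TUBA4A changed by -0.79 with AT7519 and -0.78 alone, COL16A1 by 2.10 and 1.62, OGT by 0.56 and 0.37. The 399 calls became 309 and 226 with combination replicates 1 and 2 left out and 269 and 343 with AT7519 replicates 1 and 2 left out, and 457 or 458 genes kept a negative change in each. By list, with AT7519 present 32 of 41 ribosome biogenesis genes fell, 48 of 75 mitochondrial ribosomal proteins, 24 of 48 DNA replication genes, 12 of 14 chaperonin and prefoldin genes, 24 of 36 proteasome genes and 21 of 27 heat shock genes.

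The exceptions lay mainly among the genes that rose. The difference between the effect of OSMI-2 with AT7519 and its effect alone was tested as an interaction, which passed for 198 genes (1.03%), among them 13 of the 123 genes that rose and 1 of the 462 that fell. The interaction includes the change with OSMI-2 alone by which these 123 and 462 genes were picked. That choice favours interactions of the opposite sign, so their counts are not independent of it. Among the 13 were INSIG1, MSMO1, MVD, ACSS2, SLC45A3, BBC3 and GDF15, and, named after their values were seen, ADRA2A, MVK, LSS and C11orf48. With 1 library left out the interaction of LSS passed in 0 of 8 fits (limma adjusted p up to 0.22), that of MVK in 2, and those of ADRA2A and C11orf48 in 4 each. INSIG1 had 8531 and 10909 with OSMI-2 and AT7519 and 14182 and 10558 with AT7519 alone, where the groups overlapped. Of the 31 cholesterol genes 11 fell and 1 rose when OSMI-2 was added to AT7519, the median was -0.26, and the interaction passed in 10. In the endoplasmic reticulum list the median was -0.04 with AT7519 and 0.19 alone, and 1 interaction passed. In the ATF4 list it was 0.22 with AT7519 and 0.21 alone, with 12 genes called higher. ADRA2A, an adrenergic receptor, was called in opposite directions, with 379 and 354 with OSMI-2 and AT7519 and 547 and 524 with AT7519 alone, against 1071 and 1132 with OSMI-2 and 572 and 721 in control. The gene that fell alone and had an interaction was MGEA5, with 27258 and 28200 with OSMI-2 and AT7519 and 24781 and 23336 with AT7519 alone (log2 change 0.21 with AT7519 and -0.39 alone, interaction 0.60, limma adjusted p = 0.025). Its interaction passed in 3 of the 8 fits without 1 library. The number of interactions called was 2 with either OSMI-2 library left out, 4 and 2 with control replicates 1 and 2 left out, 72 and 485 with AT7519 replicates 1 and 2 left out, and 428 and 51 with combination replicates 1 and 2 left out.

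**Figure D5:**
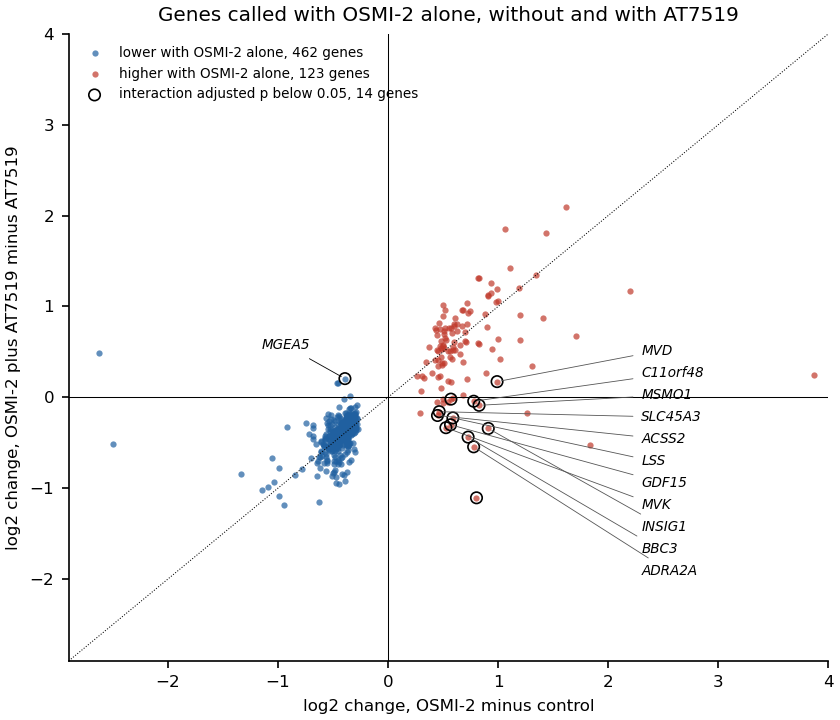
Log2 change of OSMI-2 plus AT7519 minus AT7519 (vertical axis) against that of OSMI-2 minus control (horizontal axis) for the 585 genes called with OSMI-2 alone, 462 lower in blue and 123 higher in red, with a dotted line of equal change. The 14 circled genes have an interaction with an adjusted p below 0.05, and all but MGEA5 lie right of 0 and below the dotted line.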

How the data were processed

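Total RNA of LNCaP cells was made into strand-specific TruSeq libraries, per the labels' protocols. STAR, HTSeq, DESeq2 and the build hg19 or GRCh37 are named in the submitters' processing notes, without versions or settings. The deposited values are a signal of normalised counts per gene, with 55737 genes and 28 lines without a gene name, which were left out. In every library the authors' values were whole multiples of 1 smallest step, within 0.01 for all values, which gave the reads behind each value and the totals printed in the report. Reads were not marked as independent molecules, so floors of 3 reads cover counting error only.

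Genes with a mean of at least 10 over the 4 libraries compared were tested, which hold nearly all reads. log2 of the deposited value plus 1 was fitted with limma 3.58.1 (variance trend, R 4.3.3) over all 8 libraries and 4 groups, and p-values were Benjamini-Hochberg adjusted over all 19266 genes with a threshold of 0.05. Fold changes are on that scale and understate those of low genes. Contrasts were OSMI-2 minus control, OSMI-2 with AT7519 minus AT7519, and their difference. The fit was tested on simulated counts with the same spread for all genes and larger fold changes than most of those called here. That run does not cover changes as small as most of these. Alternatives were scaling to equal totals, equal upper quartiles or equal mitochondrial mRNAs, quantile normalisation, 2 pseudocounts, 2 filters and no variance trend. Others were the 4 libraries alone, a replicate block, each library left out, and edgeR 4.0.16 and DESeq2 1.42.0 on the recovered reads. Where a left-out library leaves 1 in its group, that library is assumed to vary like the others.

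The gene lists and members were chosen with earlier results of these data known. Named genes were the O-GlcNAc list, the 12 largest rises and falls with a mean of at least 50, up to 4 called genes per direction and list, a few genes always reported, and those of them with an interaction. Fewer are described than the rule gives, and genes outside it are said to be so. Some genes that the rule or the lists hold are counted but not reported here. Promoters and gene spans came from RefSeq (GRCh38.p14) and GENCODE by symbol, and 3600 tested symbols had no match in the annotation.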

Additional observations from a re-analysis of the deposited data

Results flagged for a closer look

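The effect of OSMI-2 with AT7519 differed from its effect alone, by the interaction test in limma, in 10 of the genes reported. In the sterol and lipid genes the interaction was -1.25 for INSIG1, -0.91 for MSMO1, -0.82 for MVD and -0.65 for ACSS2. It was -1.17 for BBC3, -0.87 for GDF15 and -0.62 for SLC45A3, all 3 called higher with OSMI-2 alone. MGEA5 had an interaction of 0.60 (0.21 with AT7519 and -0.39 alone). MYC and MCL1 did not pass with OSMI-2 alone but had interactions of -0.55 (-0.64 with AT7519 and -0.09 alone) and -0.60 (-0.81 with AT7519 and -0.21 alone). These interactions passed in 1 to 4 of 8 fits without 1 library, and 0 of the 10 changed sign.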

How the results depend on the processing

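The 585 genes called kept their direction under every alternative run that tested them, but not their calls. Leaving out 1 library could not turn these signs. In all 585 the OSMI-2 libraries lay on 1 side of both controls, and the other libraries do not enter this change. The total was 1427 with the 4 libraries alone, 1525 by DESeq2, 1264 with equal mitochondrial mRNAs, 257 with equal totals, 277 with equal upper quartiles, 45 with no minimum level and 0 without the variance trend (2772 at an unadjusted p below 0.05 in that limma fit, and 708 by edgeR). Higher and lower calls were 482 and 945 with the 4 libraries alone, 397 and 1128 by DESeq2, 94 and 1170 with equal mitochondrial mRNAs, 141 and 116 with equal totals, 131 and 146 with equal upper quartiles, 255 and 290 after quantile normalisation, 15 and 30 with no minimum, and 0 and 0 without the trend. Leaving out 1 library gave 2 to 886 calls, 1 to 241 higher and 1 to 645 lower, and 1697 to 3852 for OSMI-2 with AT7519 and 2 to 485 for the interaction. Same-numbered libraries were not paired by the labels, and their deviations correlated with r of 0.0253 to 0.117. With the replicate block there were 861 calls (210 higher, 651 lower), GFPT1 and PGM3 among those higher, and 404 interactions. Of 118 named genes called, 74 passed with equal totals, 79 with equal upper quartiles, 101 after quantile normalisation, 109 with equal mitochondrial mRNAs, 2 with control replicate 2 left out and 7 with OSMI-2 replicate 2 left out. Signs turned only in genes that were not called. With equal mitochondrial mRNAs these were AMDHD2 (-0.070), NAGK (-0.059), SLC35A3 (-0.10), CDK9 (-0.12) and HEXIM1 (-0.038), and after quantile normalisation MYC (0.0015) and CDKN1A (0.00071). With 1 library left out they were GFPT2 (range -0.62 to 0.23), UAP1 (-0.25 to 0.013), AMDHD2 (-0.059 to 0.17), SLC35A3 (-0.051 to 0.095), CDK9 (-0.0091 to 0.019) and CDKN1A (-0.19 to 0.0097). The cause was not tested. With 2 libraries a group, a change that did not pass is not shown to be absent.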
